A study of Mus musculus with 68 samples.

Results

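The genes described here are 9 enzymes of the tricarboxylic acid (TCA) cycle and its refilling step, Cs, Idh2, Idh3a, Ogdh, Sucla2, Suclg1, Fh1, Mdh2 and Pcx, chosen by name among the 24059 genes of each of 2 tables of RNA-seq counts from mouse bone marrow. All 9 names were found in both tables. The first table, the stage series, held 38 libraries of erythroid populations enriched by flow cytometry: BFU-E (3 libraries), CFU-E (5), ERY-I (7), ERY-II (4), ERY-III (4), ERY-IV (4), ERY-V (7) and ERY-VI (4). The source names call the ERY populations ProE, BasoE, PolyE, OrthoE, Retic and RBC in that order, and give no genotype for them. The second table, the knockout series, held 30 libraries, with 3 GS-KO and 3 WT libraries in each of 5 gates: BFU-E, CFU-E, ERY-I-II (ProE/BasoE), a gate titled ERY-III-VI whose source is PolyE/OrthoE, and ERY-V-VI (Retic/RBC). GS is taken here to be glutamine synthetase, the product of Glul. The labels give no allele, Cre driver, strain, age or sex, and do not say whether the libraries of a group came from separate mice. The p-values below therefore reflect how far libraries of a group differed, and that may be technical variation alone.

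The TCA cycle oxidises acetyl-CoA in the mitochondrial matrix. Citrate synthase (Cs) joins acetyl-CoA to oxaloacetate, isocitrate dehydrogenases (Idh2, which uses NADP, and the NAD-dependent complex with the catalytic subunit Idh3a) make 2-oxoglutarate, and the 2-oxoglutarate dehydrogenase complex (Ogdh) makes succinyl-CoA. Succinyl-CoA ligase (the shared subunit Suclg1 with the ADP-forming subunit Sucla2) makes succinate, and fumarase (Fh1) and malate dehydrogenase (Mdh2) return the carbon to oxaloacetate. Pyruvate carboxylase (Pcx), a biotin enzyme, makes oxaloacetate straight from pyruvate and so refills the cycle when intermediates leave it. Erythroid cells draw succinyl-CoA from the cycle for heme, and reticulocytes lose their mitochondria as they mature into red cells.

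The genes lie on 9 chromosomes of the mouse genome (mm10, GRCm38): Cs at chr10:128337727-128362482, Idh2 at chr7:80094845-80118608 on the minus strand, Idh3a at chr9:54586511-54604662, Ogdh at chr11:6291597-6359094, Sucla2 at chr14:73552786-73596144, Suclg1 at chr6:73248505-73276907, Fh1 at chr1:175601378-175625635 on the minus strand, Mdh2 at chr5:135778649-135790386 and Pcx at chr19:4510472-4621752. Where no strand is given it is plus. Fh1 shares exonic bases with Kmo, on the opposite strand. The strand setting of the counting is not given in the sources used here, so reads of that pair may not be fully separated.

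RefSeq's promoter windows (GRCm38.p6, from 250 bases before to 50 after a transcript start) held 14 windows for 8 of the 9 genes, and none for Idh3a. The windows of Pcx and Ogdh are shown because these genes had the scaled levels that climbed furthest along the stage series, and that of Suclg1 because it was among the genes that went the other way. Pcx has a window at the first start, chr19:4510222-4510521, and another at an internal start, chr19:4594069-4594368. The Ogdh window is at chr11:6291920-6292219 and the Suclg1 window at chr6:73248255-73248554. All 4 are on the plus strand, and capitals mark the E-box CACGTG and the CCAAT box (CCAAT, or ATTGG on the other strand).
Pcx, first start: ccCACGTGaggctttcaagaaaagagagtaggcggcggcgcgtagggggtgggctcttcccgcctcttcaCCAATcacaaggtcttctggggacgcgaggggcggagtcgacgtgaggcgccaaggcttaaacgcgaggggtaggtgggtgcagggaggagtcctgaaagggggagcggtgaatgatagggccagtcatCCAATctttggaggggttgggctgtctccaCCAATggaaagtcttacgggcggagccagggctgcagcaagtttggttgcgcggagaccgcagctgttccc
Pcx, internal start: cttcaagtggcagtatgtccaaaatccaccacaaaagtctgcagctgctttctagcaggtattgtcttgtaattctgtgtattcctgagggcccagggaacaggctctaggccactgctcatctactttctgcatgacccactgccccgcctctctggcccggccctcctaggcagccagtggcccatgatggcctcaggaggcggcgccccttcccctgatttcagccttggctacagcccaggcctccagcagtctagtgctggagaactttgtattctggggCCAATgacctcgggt
Ogdh, 4th listed start: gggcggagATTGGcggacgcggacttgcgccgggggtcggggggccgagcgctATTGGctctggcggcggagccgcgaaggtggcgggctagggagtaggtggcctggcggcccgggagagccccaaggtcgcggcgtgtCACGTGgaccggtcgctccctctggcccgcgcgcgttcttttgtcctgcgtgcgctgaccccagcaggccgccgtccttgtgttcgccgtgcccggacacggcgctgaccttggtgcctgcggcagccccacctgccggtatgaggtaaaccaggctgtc
Suclg1: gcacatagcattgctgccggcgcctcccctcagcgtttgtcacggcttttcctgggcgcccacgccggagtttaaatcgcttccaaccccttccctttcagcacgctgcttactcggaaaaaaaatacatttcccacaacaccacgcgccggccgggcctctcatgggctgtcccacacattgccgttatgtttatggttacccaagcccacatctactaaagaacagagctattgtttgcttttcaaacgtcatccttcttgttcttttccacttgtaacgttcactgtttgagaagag
CACGTG was found in the first Pcx window and in 3 of 6 Ogdh windows, and in 7.15% of all 32851 windows. The 5th and 6th listed Ogdh windows overlap and hold the same match, and Ogdh windows 1 to 3 hold none. The CCAAT box stood in both Pcx windows (3 matches at the first start, 1 at the internal one), in the windows of Ogdh, Cs, Fh1 and Idh2, and in 37.4% of all windows, but not in those of Suclg1, Sucla2 and Mdh2. None of the 14 windows held AGATAA (11.2% of all windows), CCGGAAGT (3.89%), TCAAGGTCA (0.423%) or the palindromic motif of NRF1 (0.971%) on either strand. These are matches of letters in short windows, and say nothing of binding.

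The stage series libraries held 1630863 to 11472763 counts each, and those of the knockout series 3131142 to 15806844. The 9 genes together had 11067 to 19071 counts in a BFU-E library and 189 to 295 in an ERY-VI library, so values at the end of the series are the least precise. Levels are given as CPM, counts relative to the library total, scaled by edgeR's trimmed mean of M-values (TMM), called scaled CPM. This scaling matters here, because the 3 globin genes summed for this purpose held 0.00231% to 0.00859% of counts in BFU-E and 50.9% to 61.1% in ERY-VI, and TMM factors ran from 0.135 to 3.13. Values scaled by library totals alone are therefore given beside each direction that they turn. In the stage series, the libraries numbered 1 to 3 of BFU-E and CFU-E, and of ERY-I and ERY-V, 12 in all, held Y-linked transcripts and lay close together, while the other 26 held Xist and spread more widely. All 30 knockout series libraries held Y-linked transcripts. The erythroid regulator Gata1 was found in every population, with a mean of 196.6 CPM of library totals in BFU-E and 10.1 in ERY-VI, and 11 erythroid identity genes summed to 2135 to 2222 CPM in BFU-E and 476100 to 573600 in ERY-VI. Most of the ERY-VI sum was globin, with means of 385300 CPM for Hbb-b1 and 97950 for Hba-a1. Gata1, Klf1, Epor, Kit and Gata2 had lower means in ERY-VI than in BFU-E, and the other genes of that list higher ones. In bulk RNA, fewer cells of a type and less RNA per cell cannot be told apart.

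Pcx, the enzyme that refills the cycle, was lowest in BFU-E and far higher from ERY-II on in scaled CPM. Its scaled CPM averaged 3.48 ± 0.587 in BFU-E and 9.35 ± 2.0 in CFU-E, 29.7 ± 17.1 in ERY-I and 148 ± 54.2 in ERY-II, 127 ± 23.6 in ERY-III and 206 ± 71.6 in ERY-IV, then 262 ± 149.8 in ERY-V and 94.0 ± 56.9 in ERY-VI (SD, n = 3, 5, 7, 4, 4, 4, 7 and 4). The 3 BFU-E libraries had 4.13, 3.34 and 2.99 scaled CPM, the 5 CFU-E libraries 8.01, 8.27, 8.17, 9.53 and 12.8, and the 4 ERY-II libraries 97.0, 114.7, 162 and 218. ERY-I ranged from 14.5 to 59.2 with a median of 25.1. The first 4 populations thus did not overlap, each lying above the one before. ERY-III (107.5, 112.2, 130.0 and 159.6) lay inside the ERY-II range. ERY-IV (150.1, 169.6, 310.0 and 195.7) and ERY-V (104.4 to 445.5, median 205) overlapped with both, and ERY-VI held 1 library at 10.9, from 5 counts, beside 3 at 104.4 to 136.1. Within ERY-V, the 3 Y-linked libraries had 104.4 to 143.2 and the 4 Xist libraries 205 to 445.5. That split rests on the scaling: in CPM of library totals the sets overlapped, with 78.8 to 109.5 and 86.2 to 126.7. In CPM of library totals the Pcx means were 10.7, 25.4, 63.7, 127.3, 125.9, 128.1, 102.2 and 20.1, again with the lowest level in BFU-E but with the highest in ERY-IV and a much lower one in ERY-VI.

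**Figure D1:**
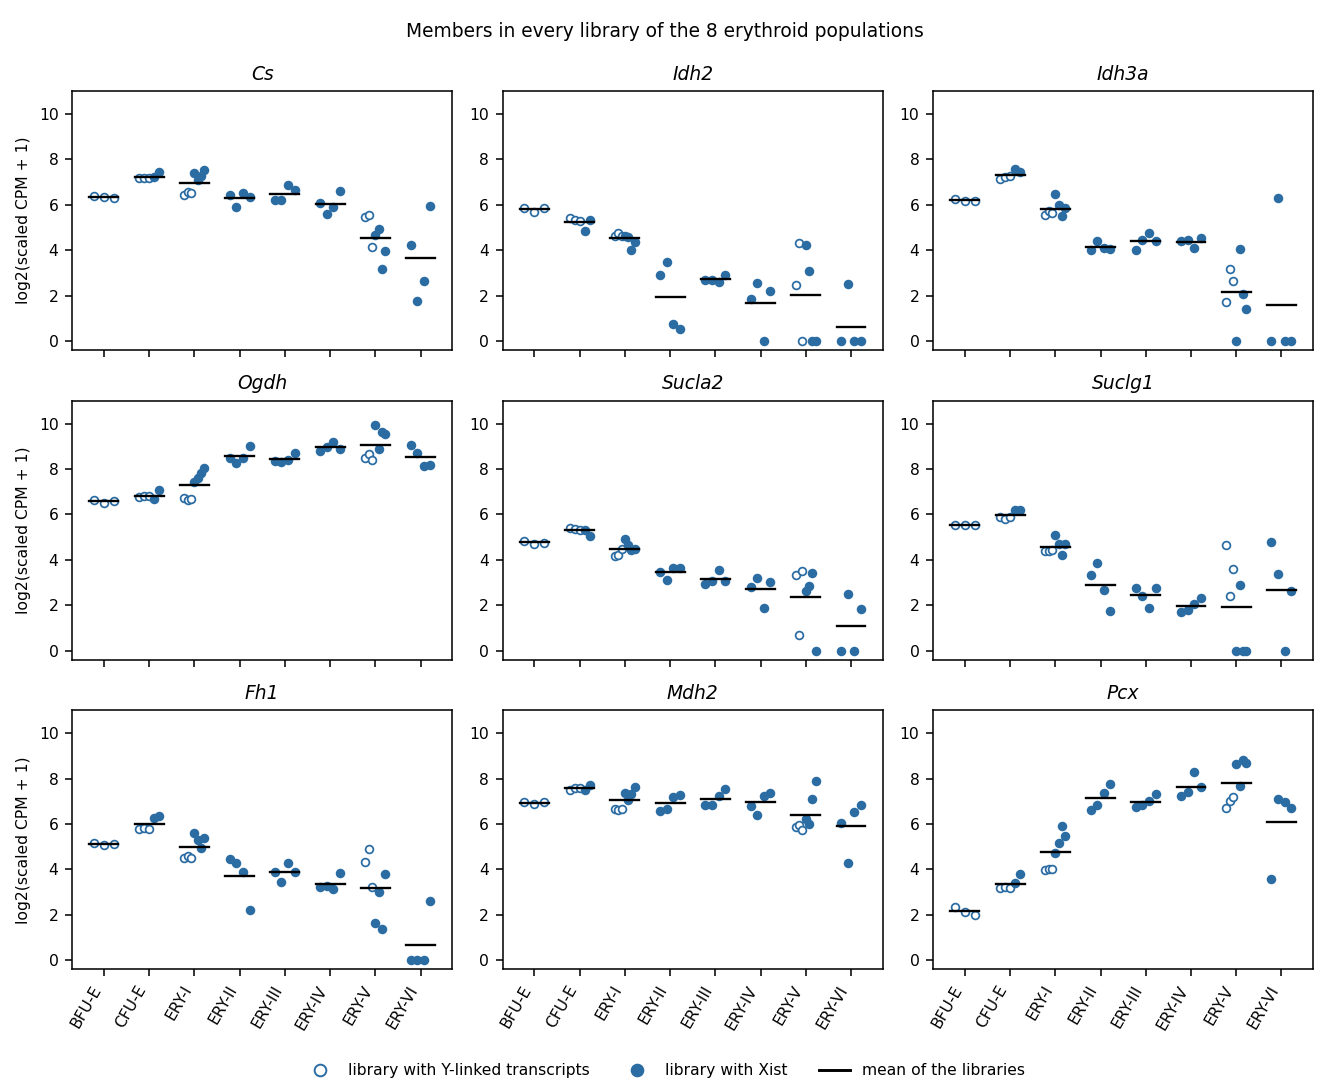
Levels of the 9 genes in the 38 libraries of the stage series, as log2(scaled CPM + 1) on the vertical axis, with the populations in order of maturation on the horizontal axis. Open circles are libraries with Y-linked transcripts, filled circles libraries with Xist, and bars the mean of the plotted values. Pcx averaged 3.48 scaled CPM in BFU-E and 262 in ERY-V, where Idh2, Suclg1, Sucla2 and Fh1 averaged between 5.89 and 11.4, and Ogdh averaged 94.7 in BFU-E and 578 in ERY-V. In CPM of library totals Ogdh averaged 292.4 in BFU-E and 244.5 in ERY-V.

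Ogdh, the first enzyme of the 2-oxoglutarate dehydrogenase complex, was the other gene with a higher scaled level late in the series. It averaged 94.7 ± 5.50 scaled CPM in BFU-E and 113 ± 12.2 in CFU-E, 165 ± 66.2 in ERY-I and 383 ± 89.2 in ERY-II, 347 ± 44.3 in ERY-III and 501 ± 59.3 in ERY-IV, then 578 ± 250.2 in ERY-V and 377 ± 115 in ERY-VI. Its CFU-E libraries (101.8 to 133.9) lay above the BFU-E libraries (88.8 to 99.8), the ERY-I libraries (97.1 to 261.8) overlapped with CFU-E, and the ERY-II libraries (307.0 to 512) lay above all of ERY-I. ERY-III (315.9 to 412.6) overlapped with ERY-II, the ERY-IV libraries (446.3 to 584.2) lay above ERY-III, and ERY-V (332.4 to 967.9) and ERY-VI (280.7 to 524.4) overlapped with ERY-IV. This order rests on the scaling: in CPM of library totals Ogdh averaged 292.4, 307, 366, 340.2, 346, 325.3, 244.5 and 70.8 along the series, which is close to level as far as ERY-IV.

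The enzymes that open the cycle had their highest levels in CFU-E or BFU-E. Cs averaged 79.8 ± 2.94 scaled CPM in BFU-E and 151 ± 12.2 in CFU-E, 131 ± 41.4 in ERY-I and 78.3 ± 13.8 in ERY-II, 89.6 ± 20.9 in ERY-III and 67.4 ± 21.0 in ERY-IV, then 26.0 ± 14.3 in ERY-V and 21.6 ± 27.2 in ERY-VI. Its ERY-I libraries fell apart by set in scaled CPM, with 84.7, 93.4 and 90.0 in the Y-linked libraries and 136.2 to 186.4 in the Xist libraries. In CPM of library totals these sets overlapped, with 250.7 to 276.8 and 274.1 to 384.8. Idh3a averaged 72.4 ± 2.84 scaled CPM in BFU-E and 160.0 ± 20.0 in CFU-E, 56.7 ± 15.6 in ERY-I and 16.8 ± 2.30 in ERY-II, then 20.4 ± 4.38 in ERY-III, 19.9 ± 2.44 in ERY-IV and 5.18 ± 5.38 in ERY-V. The CFU-E libraries of Idh3a (138.8 to 188) lay above all others, and ERY-II (15.3 to 20.2) lay below ERY-I (43.7 to 89.2). In ERY-VI, Idh3a had 33 counts in replicate 2 and 0 in the other 3 libraries. Idh2 was at its highest in BFU-E, with 54.7 ± 4.21 scaled CPM, then 37.0 ± 5.56 in CFU-E, 22.2 ± 3.70 in ERY-I and 4.46 ± 4.72 in ERY-II, 5.62 ± 0.573 in ERY-III and 2.80 ± 2.09 in ERY-IV, then 6.95 ± 8.24 in ERY-V and 1.17 ± 2.35 in ERY-VI. Scaled over the whole series, its libraries in the first 4 populations did not overlap, each population lying below the one before, but in CPM of library totals ERY-I (up to 77.8) overlapped with CFU-E (from 74.5), and ERY-II overlapped with all later populations.

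Both succinyl-CoA ligase subunits were highest in CFU-E and lower from ERY-I on. Suclg1 averaged 45.4 ± 0.287 scaled CPM in BFU-E and 63.1 ± 8.28 in CFU-E, 23.1 ± 5.28 in ERY-I and 7.56 ± 4.82 in ERY-II, 4.66 ± 1.51 in ERY-III and 2.98 ± 0.796 in ERY-IV, then 6.54 ± 8.72 in ERY-V and 10.2 ± 11.4 in ERY-VI. Sucla2 averaged 26.2 ± 1.18 in BFU-E and 38.4 ± 3.44 in CFU-E, 21.7 ± 4.26 in ERY-I and 10.2 ± 1.77 in ERY-II, 8.04 ± 1.87 in ERY-III and 5.97 ± 2.40 in ERY-IV, then 5.89 ± 4.24 in ERY-V and 1.81 ± 2.27 in ERY-VI. For both genes the ERY-II libraries lay wholly below the ERY-I libraries, and ERY-III overlapped with ERY-II. Fh1 averaged 33.8 ± 0.718 in BFU-E and 63.7 ± 13.3 in CFU-E, 31.9 ± 10.6 in ERY-I and 14.1 ± 7.54 in ERY-II, 14.1 ± 3.36 in ERY-III and 9.55 ± 2.58 in ERY-IV, then 11.4 ± 9.70 in ERY-V and 1.27 ± 2.55 in ERY-VI, this last from 2 counts in 1 library. Mdh2, the final enzyme of the cycle, had 122 ± 3.81, 191 ± 11.3, 135 ± 38.2, 123 ± 31.0, 140.3 ± 34.7, 127 ± 37.1, 97.5 ± 68.2 and 72.2 ± 40.9 scaled CPM along the series, a narrow course that rests on the scaling, since in CPM of library totals it averaged 519.3 in CFU-E and 14.8 in ERY-VI. The CFU-E libraries of Mdh2 (181.1 to 208.9) lay above BFU-E (117.8 to 124.9), and every later population overlapped with the next.

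A gene's level relative to the other 8 in the same library does not depend on the scaling. Counts of 0 were set to 1 for this ratio, so late values rest in part on that floor: 1 ERY-IV library, 4 ERY-V libraries and all 4 ERY-VI libraries had 1 to 5 of the 9 genes at 0. Expressed as the log2 ratio of a gene's count to the geometric mean of the other 8, Pcx stood at -4.09 ± 0.21 in BFU-E and -3.21 ± 0.20 in CFU-E, -0.98 ± 0.67 in ERY-I and 2.58 ± 0.94 in ERY-II, 2.26 ± 0.12 in ERY-III and 3.31 ± 0.69 in ERY-IV, then 3.94 ± 1.27 in ERY-V and 2.57 ± 1.82 in ERY-VI. By group mean, Pcx thus lay below the mean of the other enzymes as far as ERY-I and above it from ERY-II on. Single libraries crossed this line, with a highest ratio of 0.24 in ERY-I and a lowest of -0.1 in ERY-VI. On the same log2 scale Ogdh stood at 1.28 ± 0.04 in BFU-E and 0.85 ± 0.10 in CFU-E, 1.92 ± 0.37 in ERY-I, 4.18 ± 0.71 in ERY-II and 5.35 ± 0.95 in ERY-V, so its place among the enzymes was higher late in the series whatever the scaling. Mdh2 kept a place between 1.65 (ERY-I) and 2.53 (ERY-IV), while Idh2 stood at 0.39 ± 0.10 in BFU-E and -2.79 ± 0.19 in ERY-III, and Suclg1 at 0.09 ± 0.07 and -3.16 ± 0.66 in the same populations. Per kilobase of exon, the rank of mean scaled CPM gives the same picture. Mdh2 ranked first of the 9 in BFU-E (34.3 scaled CPM per kb), CFU-E (53.6) and ERY-I (37.9), and Ogdh ranked first from ERY-II (70.2) to ERY-VI (69.1). Pcx ranked 9th in BFU-E (0.733) and CFU-E (1.97), 7th in ERY-I (6.25), 3rd in ERY-II (31.1) and ERY-III (26.8), 2nd in ERY-IV (43.4) and ERY-V (55.1) and 3rd in ERY-VI (19.8).

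**Figure D2:**
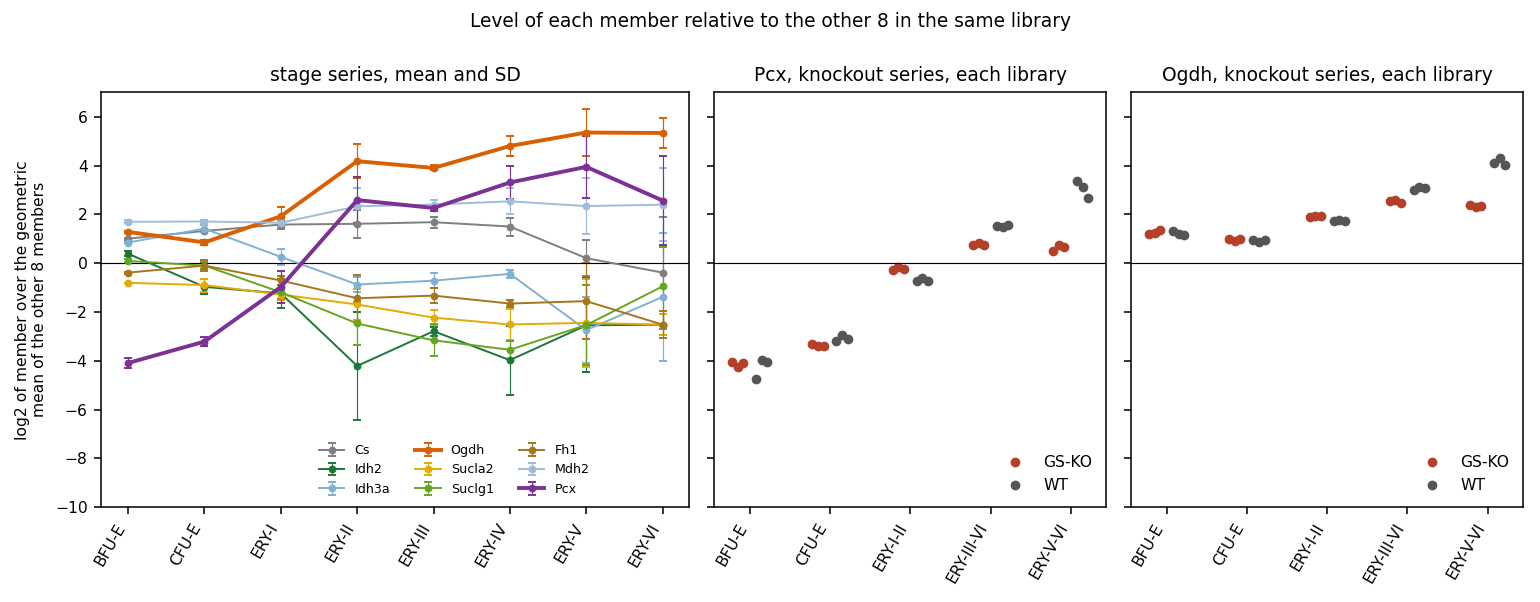
Log2 ratio of each gene's count to the geometric mean of the other 8 genes in the same library, on the vertical axis. Left, mean ± SD over the libraries of each stage series population for the 9 genes. Middle and right, Pcx and Ogdh in each knockout series library, with GS-KO (red) left of WT (grey) in each gate. Pcx averaged -4.09 in BFU-E and 3.94 in ERY-V, and 0.63 in GS-KO against 3.06 in WT in the ERY-V-VI gate.

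The step from BFU-E to CFU-E, the last stages before recognisable erythroblasts, carried a broad increase of the cycle's transcripts. Of the 9 genes, 7 rose and 1 fell in CFU-E against BFU-E, where 18.2% of the 10807 genes tested rose, 19.1% fell and 37.3% passed in either direction (edgeR quasi-likelihood test, Benjamini-Hochberg adjusted p under 0.05). The CFU-E libraries of Pcx had 22.1, 22.9, 22.3, 28.2 and 37.3 CPM scaled over these 8 libraries, against 11.8, 9.86 and 8.79 in BFU-E, a log2 fold change of 1.37 ± 0.23 (SE, edgeR adjusted p = 0.002). For Idh3a the CFU-E libraries had 383, 412, 414, 556 and 506, against 216, 207 and 209.9 in BFU-E, a log2 fold change of 1.10 ± 0.15 (SE, edgeR adjusted p = 0.00084). All CFU-E libraries lay above all BFU-E libraries for both genes. Cs rose by 0.87 ± 0.12 on the log2 scale (edgeR adjusted p = 0.00094), Fh1 by 0.87 ± 0.19 (adjusted p = 0.0083), Mdh2 by 0.60 ± 0.11 (adjusted p = 0.0038), Sucla2 by 0.51 ± 0.10 (adjusted p = 0.005) and Suclg1 by 0.43 ± 0.15 (adjusted p = 0.042). Idh2 went the other way, with 115, 108, 104, 80.8 and 114 in CFU-E against 163, 147 and 168 in BFU-E, a log2 fold change of -0.61 ± 0.13 (SE, edgeR adjusted p = 0.0066). Ogdh differed by 0.21 ± 0.13 and missed the threshold (adjusted p = 0.21). The Suclg1 call was lost when any BFU-E library or CFU-E replicate 4 or 5 was left out (edgeR adjusted p 0.052 to 0.13), and with library totals (0.29, adjusted p = 0.082). Within the Y-linked libraries all 9 genes passed, with Pcx at 1.11, Idh3a at 0.93 and Idh2 at -0.55, whereas with replicates 1 to 3 summed to 1 library per group none did and Pcx had a log2 fold change of 1.46 (adjusted p = 0.26). That last setting leaves BFU-E with 1 library.

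From CFU-E to ERY-I the genes parted. Of the 9, 2 rose and 5 fell, where 25.4% of the 10460 genes tested rose, 20.9% fell and 46.4% passed in all. Pcx had a lowest of 42.6, a median of 59.3 and a highest of 148 scaled CPM in ERY-I, against 18.5, 19.2, 18.7, 23.2 and 30.6 in CFU-E, a log2 fold change of 1.78 ± 0.34 (SE, edgeR adjusted p = 0.0012). The 2 groups did not overlap. Ogdh had a lowest of 285, a median of 402 and a highest of 645 in ERY-I, against a lowest of 248, a median of 253 and a highest of 322 in CFU-E, a log2 fold change of 0.68 ± 0.22 (SE, edgeR adjusted p = 0.023), and here the groups overlapped. The Ogdh call was lost in 8 of the 12 fits that left out 1 library (CFU-E replicates 1 to 4 and ERY-I replicates 4 to 7, edgeR adjusted p 0.052 to 0.079), and with library totals (0.26, adjusted p = 0.12). Suclg1 had a lowest of 44.4, a median of 59.3 and a highest of 78.6 in ERY-I, against 135, 127, 133, 174 and 175 in CFU-E, a log2 fold change of -1.30 ± 0.14 (SE, edgeR adjusted p = 3.9e-05), and Idh3a a lowest of 109, a median of 141 and a highest of 211 against 321, 344, 346, 458 and 416, a log2 fold change of -1.35 ± 0.16 (SE, edgeR adjusted p = 5.2e-05). For both, every ERY-I library lay below every CFU-E library. Fh1 fell by 0.88 ± 0.19 on the log2 scale (edgeR adjusted p = 0.0025), Sucla2 by 0.67 ± 0.11 (adjusted p = 0.00044) and Idh2 by 0.55 ± 0.17 (adjusted p = 0.02). Same-numbered libraries of these populations deviated together, but they also shared the Y-linked or Xist set, so pairing and set cannot be told apart here. With the replicate number as a block Ogdh was at 0.32 (adjusted p = 0.078) and Mdh2 passed at -0.59 (adjusted p = 0.0039), against -0.36 (adjusted p = 0.064) without the block. Mdh2 also passed without ERY-I replicate 7 (-0.50, adjusted p = 0.02) and with library totals (-0.74, where Cs passed too at -0.46), but not within the Xist libraries (-0.27, adjusted p = 0.27) or with replicates 1 to 3 summed (-0.30, adjusted p = 0.28). Within the Y-linked libraries Pcx stood at 1.09, Ogdh at 0.10, Cs at -0.47 and Mdh2 at -0.71, and all 9 genes passed. Within the Xist libraries 7 passed, with Pcx at 1.88 and Ogdh at 0.86, and Cs at 0.01. Neutrophil markers also varied between libraries. The summed level of 10 such genes ran from 4.20 to 30.6 CPM in CFU-E and from 0.409 to 13930 CPM in ERY-I. Whether the markers followed these sets, and their part in the result, was not tested.

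With TMM, Pcx rose more in ERY-II against ERY-I than in either step before it, but with library totals its log2 fold change was smaller here (1.0) than in ERY-I against CFU-E (1.34) or CFU-E against BFU-E (1.23). Of the 9 genes, 2 rose and 6 fell in ERY-II, where 20.2% of the 10327 genes tested rose, 25.1% fell and 45.3% passed in all. Pcx had 157, 188, 276 and 349 scaled CPM in ERY-II, against a lowest of 27.2, a median of 37.3 and a highest of 92.7 in ERY-I, a log2 fold change of 2.34 ± 0.37 (SE, edgeR adjusted p = 0.00045), with no overlap. Ogdh had 569.6, 502, 617 and 819 in ERY-II, against a lowest of 182, a median of 253 and a highest of 404 in ERY-I, a log2 fold change of 1.22 ± 0.24 (SE, edgeR adjusted p = 0.0019), also with no overlap, but with library totals its fold change was -0.11 (adjusted p = 0.53). The median of all genes tested moved by -0.35 in this comparison with TMM and by -1.68 with library totals. Idh2 fell furthest, with 10.7, 16.6, 1.15 and 0.742 in ERY-II against a lowest of 23.8, a median of 35.5 and a highest of 49.2 in ERY-I, a log2 fold change of -2.38 ± 0.66 (SE, edgeR adjusted p = 0.013). Every ERY-II library lay below every ERY-I library, and the ERY-II libraries spread widely. Idh3a fell by 1.77 ± 0.18 (edgeR adjusted p = 5.2e-05), Suclg1 by 1.62 ± 0.37 (adjusted p = 0.0044), Fh1 by 1.15 ± 0.37 (adjusted p = 0.024), Sucla2 by 1.10 ± 0.17 (adjusted p = 0.00048) and Cs by 0.73 ± 0.20 (adjusted p = 0.011). The Fh1 call was lost without ERY-II replicate 3 (-1.17, adjusted p = 0.06). Mdh2 differed by -0.13 (adjusted p = 0.59) with TMM and passed at -1.49 (adjusted p = 2.9e-05) with library totals. All ERY-II libraries held Xist, and against the 4 Xist libraries of ERY-I alone 8 genes still passed, with Pcx at 1.97 and Ogdh at 0.96.

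After ERY-II the fits passed few genes of any kind, and none of the 9. In ERY-III against ERY-II 0.185% of 7574 genes passed (edgeR), all of them higher. In ERY-IV against ERY-III it was 13.6% of 7238 (10.3% higher and 3.29% lower), in ERY-V against ERY-IV 8.83% of 6990 (6.49% higher and 2.33% lower), and in ERY-VI against ERY-V 7.83% of 5030 (3.32% higher and 4.51% lower). The unadjusted p was under 0.05 for 0, 2, 1 and 0 of the 9 genes in these 4 steps, and DESeq2 passed 0, 1, 0 and 0. ERY-IV against ERY-III came closest to a call. Ogdh had 351, 385, 466 and 384 scaled CPM in ERY-IV, against 269, 255, 268 and 339 in ERY-III, a log2 fold change of 0.49 ± 0.17 (SE, edgeR adjusted p = 0.084). Pcx had 118, 132, 247 and 158 in ERY-IV, against 89.1, 90.7, 104 and 131 in ERY-III, a log2 fold change of 0.66 ± 0.25 (SE, edgeR adjusted p = 0.11). The Ogdh groups did not overlap and the Pcx groups overlapped by 1 library of each. Same-numbered libraries deviated together here, and with that block both passed (Ogdh 0.49, edgeR adjusted p = 0.037, and Pcx 0.61, adjusted p = 0.02, where 25.2% of all genes passed), but with library totals, without the block, Ogdh stood at -0.09 and Pcx at 0.02. In ERY-V against ERY-IV, Pcx passed within the Xist libraries alone (1.21, adjusted p = 0.041), and stood at -0.33 with library totals over all libraries. In ERY-VI only 4 of the 9 genes had enough counts to be tested, and with library totals 2 of them passed, Ogdh at -1.80 and Pcx at -2.37.

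The WT libraries of the knockout series gave another view of the same course, in other gates. Genes of other cells moved along it too: 8 of 8 tested neutrophil genes rose in WT ERY-I-II against WT CFU-E (median 2.76), 10 of 10 in WT ERY-III-VI against WT ERY-I-II (1.92) and 10 of 10 in WT ERY-V-VI against WT ERY-III-VI (2.41). Of the monocyte and macrophage genes 4 of 4, 7 of 7 and 6 of 7 tested rose in these steps, and the part of either list in the results was not tested. In WT CFU-E against WT BFU-E 8 of the 9 genes rose and Idh2 fell, where 34.5% of 10826 genes rose, 36% fell and 70.5% passed in all. Pcx had 26.6, 31.7 and 27.8 scaled CPM in WT CFU-E, against 7.37, 12.5 and 11.7 in WT BFU-E, a log2 fold change of 1.40 ± 0.12 (SE, edgeR adjusted p = 2.7e-19). Idh2 had 114, 118 and 124 in WT CFU-E, against 160.5, 167 and 159.6 in WT BFU-E, a log2 fold change of -0.45 ± 0.04 (SE, edgeR adjusted p = 2.6e-17). Neither gene's groups overlapped. Suclg1 rose least (0.13, edgeR adjusted p = 0.003), with overlapping groups, and its call was lost without WT BFU-E replicate 2 (0.09, adjusted p = 0.066) and with library totals (0.03, adjusted p = 0.57), as was that of Ogdh with library totals (0.06, adjusted p = 0.066, against 0.16 with TMM). In WT ERY-I-II against WT CFU-E 3 rose and 6 fell, where 39.9% of 10197 genes rose, 41.9% fell and 81.8% passed in all. Pcx had 94.4, 100.5 and 95.1 in WT ERY-I-II, against 22.1, 26.3 and 23.1 in WT CFU-E, a log2 fold change of 2.03 ± 0.07 (SE, edgeR adjusted p = 1.4e-25), all above. Suclg1 fell by 1.05 and Idh3a by 0.93, while Ogdh rose by 0.64. Cs rose by 0.19 with TMM and fell by 0.24 with library totals (adjusted p = 1.7e-08), so its direction rests on the scaling.

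In WT ERY-III-VI against WT ERY-I-II 2 genes rose and 7 fell, where 35.3% of 9503 genes rose, 38.1% fell and 73.4% passed in all. Pcx had 177, 165 and 174 scaled CPM in WT ERY-III-VI, against 63.5, 67.2 and 64.1 in WT ERY-I-II, a log2 fold change of 1.40 ± 0.06 (SE, edgeR adjusted p = 1.5e-20). Suclg1 had 10.6, 15.7 and 13.8 in WT ERY-III-VI, against 44.0, 42.3 and 46.0 in WT ERY-I-II, a log2 fold change of -1.74 ± 0.13 (SE, edgeR adjusted p = 1.5e-13). The libraries separated fully for both, Pcx upwards and Suclg1 downwards. Idh2 fell by 1.55, Idh3a by 1.15, Fh1 by 0.95, Sucla2 by 0.84, Cs by 0.47 and Mdh2 by 0.36, and each kept its direction with library totals. Ogdh rose by 0.61 with TMM and fell by 0.11 with library totals (edgeR adjusted p = 0.0026). In WT ERY-V-VI against WT ERY-III-VI 2 rose and 2 fell, where 18.4% of 8025 genes rose, 12.9% fell and 31.2% passed in all. Pcx had 249, 196 and 178 in WT ERY-V-VI, against 92.5, 86.2 and 91.5 in WT ERY-III-VI, a log2 fold change of 1.21 ± 0.11 (SE, edgeR adjusted p = 1.1e-06), and Fh1 3.49, 7.70 and 5.04 against 14.9, 16.4 and 16.1, a log2 fold change of -1.58 ± 0.33 (SE, edgeR adjusted p = 0.0024). Both again separated fully, with Fh1 at 10, 16 and 16 counts in WT ERY-V-VI. Here the scaling decides much: the median of all genes moved by -0.01 with TMM and by -1.16 with library totals, with which Pcx stood at 0.05 (adjusted p = 0.69) and Ogdh at -0.36 (adjusted p = 4.9e-05) in place of 0.80. Cs fell by 0.48 (adjusted p = 0.0064), a call lost without WT ERY-III-VI replicate 1 (-0.44, adjusted p = 0.05), and Mdh2 passed without WT ERY-V-VI replicate 2 (-0.37, adjusted p = 0.015).

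**Figure D3:**
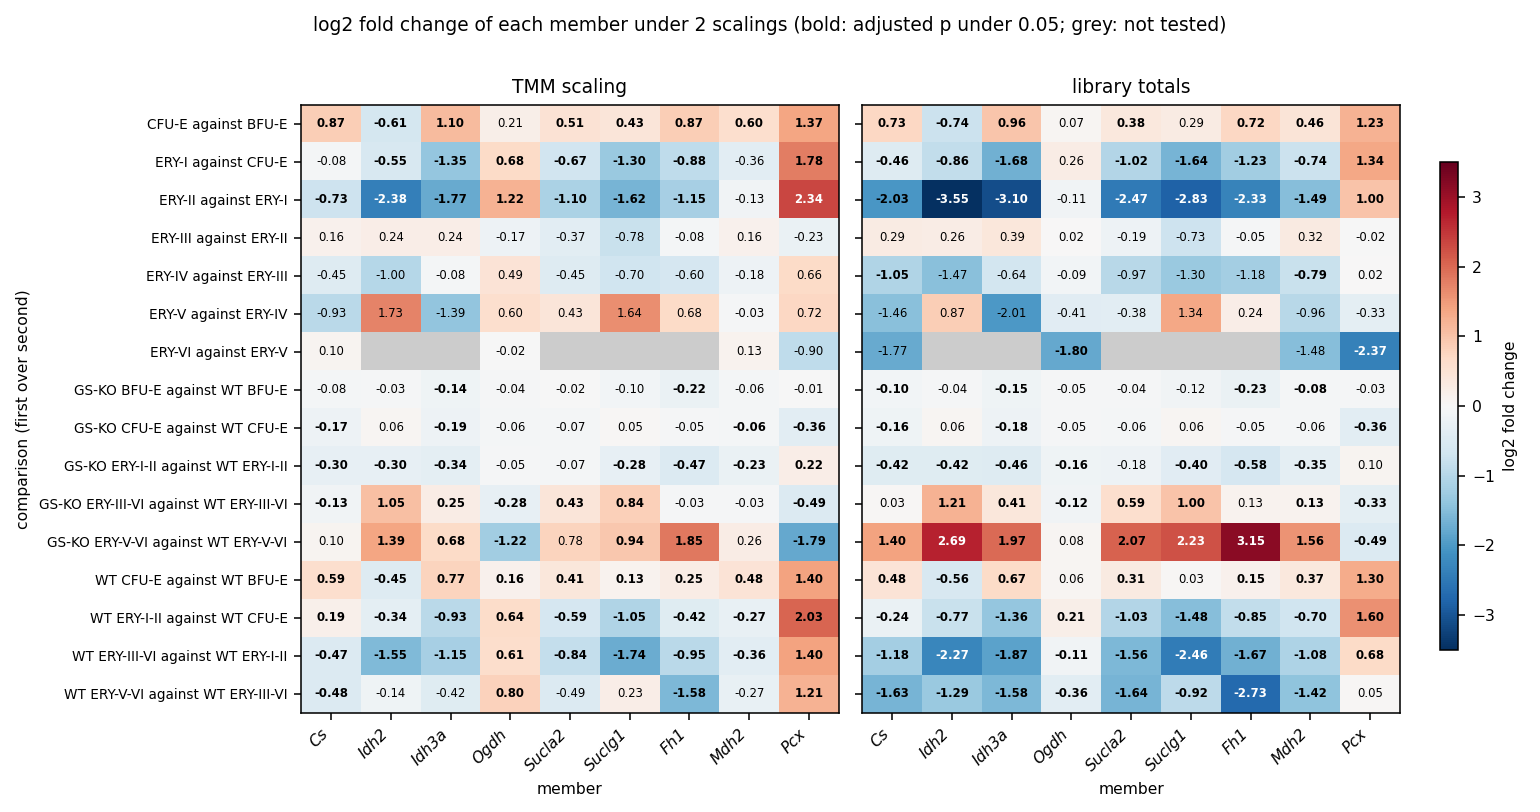
Log2 fold changes of the 9 genes (columns) in 16 comparisons (lines of the grid), the first-named group over the second, with TMM scaling on the left and library totals on the right. Bold values have an edgeR adjusted p under 0.05, and grey cells were not tested. Pcx is positive with TMM from CFU-E against BFU-E to ERY-II against ERY-I (1.37, 1.78 and 2.34), and the right panel shows where library totals turn a direction, as for Ogdh in ERY-II against ERY-I (1.22 with TMM and -0.11 with library totals).

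The knockout was checked first by its target. Glul averaged 98.8 CPM of library totals in GS-KO BFU-E against 122.1 in WT BFU-E, 36.0 against 86.0 in CFU-E, 14.9 against 110.1 in ERY-I-II, 19.2 against 159.2 in ERY-III-VI and 23.3 against 253.8 in ERY-V-VI. It fell in all 5 gates, by 0.29, 1.26, 2.77, 3.22 and 4.73 on the log2 scale with TMM (edgeR adjusted p = 1.3e-05 for BFU-E, the highest of the 5). Genes of other blood cells moved with the genotype as well. The summed level of 10 neutrophil genes, none of them at 0 in GS-KO, was 4403 to 13740 CPM of library totals over the GS-KO libraries and 26.7 to 664.1 over the WT libraries. That of 10 monocyte and macrophage genes was 244.1 to 898.3 CPM in GS-KO and 4.70 to 85.8 in WT. Of the 11 erythroid identity genes 6 rose and 5 fell in GS-KO BFU-E, 5 rose and 4 fell in CFU-E, 7 of 10 tested rose and 2 fell in ERY-I-II, 4 rose and 6 fell in ERY-III-VI, and 1 rose and 9 fell in ERY-V-VI. Their median log2 fold change in these gates was 0.28, 0.11, 0.42, -0.34 and -1.49, the last -0.19 with library totals. Over all genes tested, 15.4%, 17.9%, 22.9%, 31.4% and 22.4% rose in these gates, and 8.59%, 11.5%, 17.5%, 24.5% and 20.5% fell. Slc4a1, the anion exchanger of the red cell membrane, averaged 246.6 CPM in GS-KO BFU-E against 3.99 in WT, but 13800 in GS-KO ERY-V-VI against 19330 in WT. Kit, the stem cell factor receptor of early progenitors, averaged 34.8 CPM in GS-KO ERY-III-VI against 2.21 in WT, and 58.0 in GS-KO ERY-V-VI against 4.65 in WT. The part of these differences in the results for the 9 genes was not tested.

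In the 2 progenitor gates the differences between GS-KO and WT were small. In GS-KO BFU-E against WT BFU-E none of the 9 genes rose and 2 fell, where 15.4% of 11356 genes rose, 8.59% fell and 24% passed in all. Fh1 had 108, 102 and 102 scaled CPM in GS-KO BFU-E, against 113, 122 and 125 in WT BFU-E, a log2 fold change of -0.22 ± 0.05 (SE, edgeR adjusted p = 0.0014). Idh3a had 242, 235 and 228 in GS-KO BFU-E, against 261, 254 and 264 in WT BFU-E, a log2 fold change of -0.14 ± 0.04 (SE, edgeR adjusted p = 0.0017). The groups did not overlap for either gene. Suclg1 also passed without WT BFU-E replicate 2 (-0.15, edgeR adjusted p = 0.035) and Cs without GS-KO BFU-E replicate 2 (-0.09, adjusted p = 0.048). In GS-KO CFU-E against WT CFU-E none rose and 4 fell, where 17.9% of 10859 genes rose, 11.5% fell and 29.4% passed in all. Pcx had 21.6, 21.0 and 21.8 in GS-KO CFU-E, against 25.7, 30.6 and 26.9 in WT CFU-E, a log2 fold change of -0.36 ± 0.09 (SE, edgeR adjusted p = 0.0026), and Idh3a 362, 366 and 365 against 407, 430.5 and 409, a log2 fold change of -0.19 ± 0.03 (SE, edgeR adjusted p = 1.6e-06). All GS-KO libraries lay below all WT libraries. Cs fell by 0.17 ± 0.03 (adjusted p = 1.2e-05) and Mdh2 by 0.06 ± 0.02 (adjusted p = 0.045). The Mdh2 call was lost with DESeq2 (adjusted p = 0.084), with library totals (-0.06, adjusted p = 0.065) and without WT CFU-E replicate 1 or 2 or GS-KO CFU-E replicate 2 (adjusted p 0.084 to 0.15). Ogdh passed without GS-KO CFU-E replicate 3 (-0.10, adjusted p = 0.016).

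In the ERY-I-II gate most of the cycle's transcripts were lower in GS-KO, while Pcx was higher with TMM. Of the 9 genes 1 rose and 6 fell, where 22.9% of 9954 genes rose, 17.5% fell and 40.4% passed in all. Fh1 had 57.1, 49.8 and 48.7 scaled CPM in GS-KO ERY-I-II, against 70.0, 69.7 and 75.4 in WT ERY-I-II, a log2 fold change of -0.47 ± 0.09 (SE, edgeR adjusted p = 4.1e-06). Cs had 284, 266 and 277 in GS-KO, against 367, 323 and 332 in WT, a log2 fold change of -0.30 ± 0.04 (SE, edgeR adjusted p = 3.7e-10). Idh3a had 116, 122 and 129 in GS-KO, against 155, 155 and 156 in WT, a log2 fold change of -0.34 ± 0.05 (SE, edgeR adjusted p = 1.8e-07). In each case every GS-KO library lay below every WT library. Idh2 fell by 0.30 (edgeR adjusted p = 0.003), Suclg1 by 0.28 (adjusted p = 0.013) and Mdh2 by 0.23 (adjusted p = 8.2e-08). The Suclg1 call was lost without WT replicate 3 (-0.26, adjusted p = 0.056) or GS-KO replicate 3 (-0.20, adjusted p = 0.13) of this gate. Pcx had 92.5, 97.2 and 89.7 in GS-KO, against 78.1, 82.8 and 78.8 in WT, a log2 fold change of 0.22 ± 0.07 (SE, edgeR adjusted p = 0.0091). With library totals Ogdh passed at -0.16 (adjusted p = 2.1e-05). The Pcx groups did not overlap, but the call was lost without GS-KO ERY-I-II replicate 2 (0.18, adjusted p = 0.065) and with library totals (0.10, adjusted p = 0.24).

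In the ERY-III-VI gate the pattern was split in the other direction. Of the 9 genes 4 rose and 3 fell, where 31.4% of 9981 genes rose, 24.5% fell and 55.9% passed in all. Pcx had 98.1, 105 and 100.1 scaled CPM in GS-KO ERY-III-VI, against 147, 136 and 143 in WT ERY-III-VI, a log2 fold change of -0.49 ± 0.06 (SE, edgeR adjusted p = 3.6e-10). Ogdh had 295, 315 and 291 in GS-KO, against 361, 371 and 363 in WT, a log2 fold change of -0.28 ± 0.04 (SE, edgeR adjusted p = 4.1e-09). Both fell with library totals too (-0.33 and -0.12). Idh2 had 30.8, 28.6 and 31.0 in GS-KO, against 18.9, 12.9 and 10.5 in WT, a log2 fold change of 1.05 ± 0.15 (SE, edgeR adjusted p = 3.8e-08), and Suclg1 18.8, 19.2 and 20.8 against 8.75, 12.9 and 11.3, a log2 fold change of 0.84 ± 0.17 (SE, edgeR adjusted p = 3.9e-05). The groups of all 4 genes were apart. Sucla2 rose by 0.43 ± 0.14 (edgeR adjusted p = 0.009), a call lost without WT ERY-III-VI replicate 2 (0.26, adjusted p = 0.12). Idh3a rose by 0.25 ± 0.09 (adjusted p = 0.019), lost in 4 of 6 fits that left out 1 library (WT replicate 1 or 3, GS-KO replicate 2 or 3, adjusted p 0.056 to 0.13) and with DESeq2 (adjusted p = 0.067). Cs fell by 0.13 ± 0.05 (adjusted p = 0.036) with TMM but stood at 0.03 with library totals, and its call was lost without WT replicate 1 or GS-KO replicate 1 or 3 (adjusted p 0.068 to 0.26). Fh1 and Mdh2, both at -0.03, turned to 0.13 with library totals, where Mdh2 passed (edgeR adjusted p = 0.029) and Fh1 did not (adjusted p = 0.41).

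For Pcx, Ogdh, Idh2 and Fh1 the TMM-scaled differences were largest in the ERY-V-VI gate, although that of Ogdh was lost with library totals. Of the 9 genes 4 rose and 2 fell in GS-KO, where 22.4% of 9403 genes rose, 20.5% fell and 42.9% passed in all. Pcx had 60.6, 63.7 and 64.9 scaled CPM in GS-KO ERY-V-VI, against 262, 204 and 188 in WT ERY-V-VI, a log2 fold change of -1.79 ± 0.12 (SE, edgeR adjusted p = 2.5e-09). It also fell with library totals (-0.49, adjusted p = 0.002). Ogdh had 195, 168 and 182 in GS-KO, against 413, 419 and 435 in WT, a log2 fold change of -1.22 ± 0.07 (SE, edgeR adjusted p = 4e-10), but stood at 0.08 (adjusted p = 0.29) with library totals. Fh1 had 23.5, 19.9 and 16.8 in GS-KO, against 3.67, 7.98 and 5.34 in WT, a log2 fold change of 1.85 ± 0.37 (SE, edgeR adjusted p = 0.00073), and Idh2 24.2, 23.7 and 20.5 against 12.1, 3.49 and 9.68, a log2 fold change of 1.39 ± 0.36 (SE, edgeR adjusted p = 0.0053). None of these 4 pairs of groups overlapped. The WT values of Fh1 came from 10, 16 and 16 counts, and those of Idh2 from 33, 7 and 29. Reads of Fh1 and Kmo may not be fully separated, as said above. With library totals Fh1 stood at 3.15 and Idh2 at 2.69, since the median of all genes moved by 0.15 with TMM and by 1.44 with library totals. With library totals 8 of the 9 genes passed, 7 of them higher and Pcx alone lower, among them Cs (1.40, adjusted p = 2.1e-07, against 0.10 with TMM), Sucla2 (2.07) and Mdh2 (1.56). Idh3a rose by 0.68 ± 0.21 (edgeR adjusted p = 0.017), lost without any of the 3 GS-KO libraries (adjusted p 0.057 to 0.086), and Suclg1 by 0.94 ± 0.36 (adjusted p = 0.044), lost in 5 of 6 fits that left out 1 library (all but the one without WT replicate 3, adjusted p 0.067 to 0.27). Sucla2 at 0.78 and Mdh2 at 0.26 missed the threshold (adjusted p = 0.084 and adjusted p = 0.077), but Sucla2 passed without WT replicate 3 (1.04, adjusted p = 0.026) and Mdh2 without WT replicate 2 (0.35, adjusted p = 0.018). The 3 globin genes held 6.68% to 6.81% of counts in GS-KO ERY-V-VI and 17.1% to 17.3% in WT, and their part in the result was not tested.

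**Figure D4:**
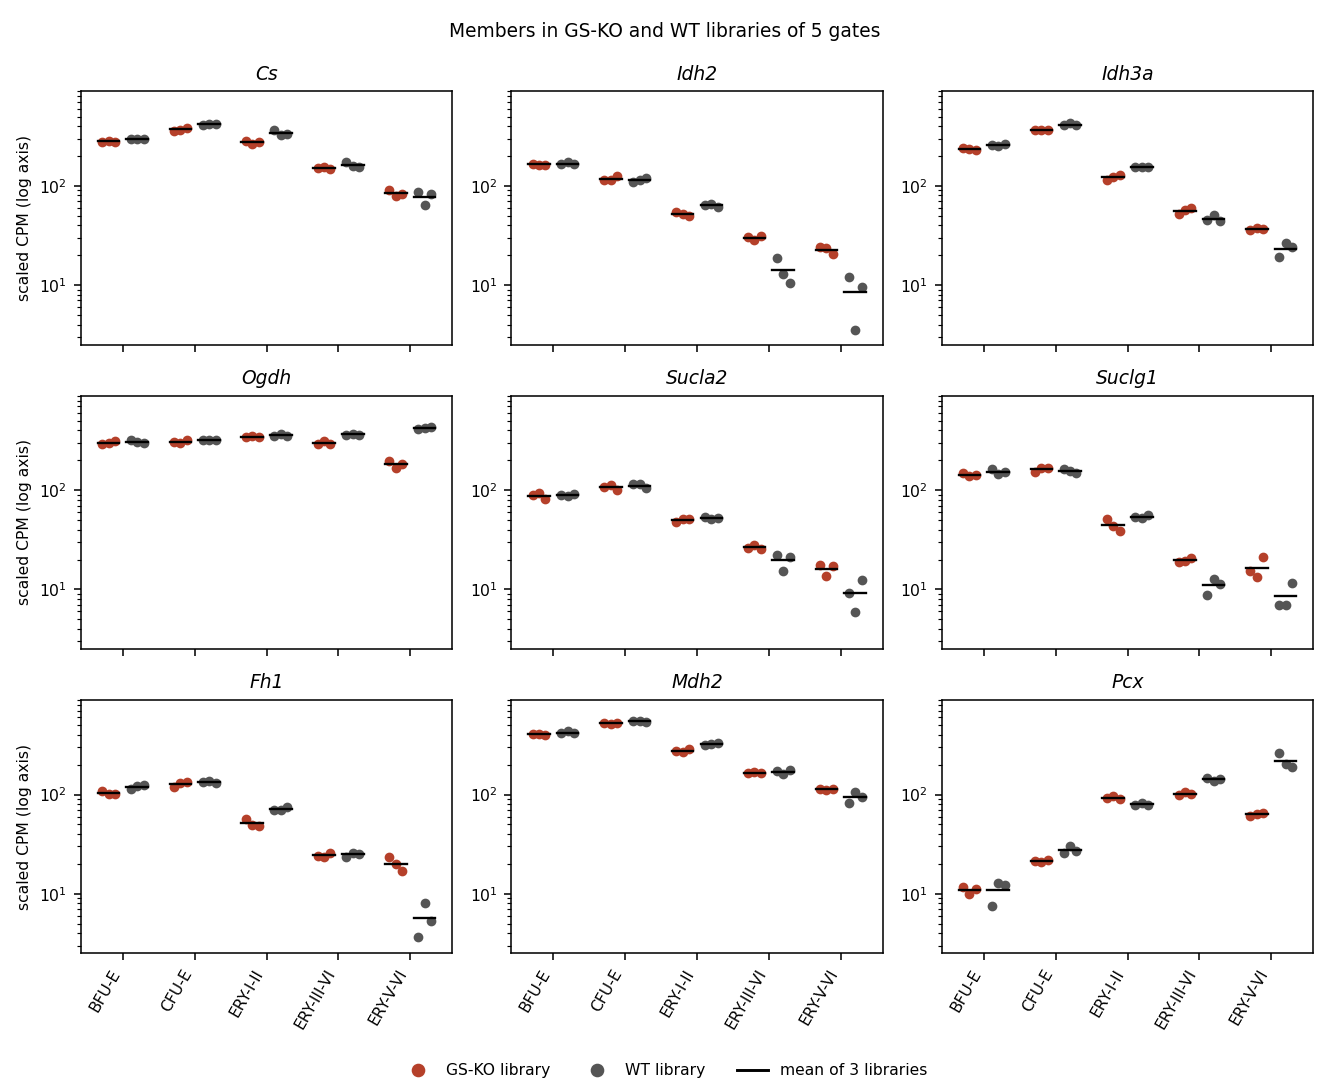
Scaled CPM of the 9 genes in the 30 knockout series libraries on a log axis, scaled within each gate, with GS-KO left of WT in each gate and bars at the mean of 3 libraries. Pcx lay lower in all GS-KO libraries than in all WT libraries in CFU-E, ERY-III-VI and ERY-V-VI, and higher in ERY-I-II, where the call is lost with library totals. In ERY-V-VI, Fh1 had 16.8 to 23.5 in GS-KO against 3.67 to 7.98 in WT, the WT values from 10 to 16 counts.

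The genotype difference itself varied between gates for all 9 genes, where 61.2% of 12051 genes did (edgeR quasi-likelihood test of the 4 interaction terms). The smallest adjusted p was that of Ogdh (5.3e-25), then Pcx (1.1e-19), and the highest that of Sucla2 (0.014). Relative to the other 8 genes in the same library, Pcx stood at -4.12 ± 0.11 in GS-KO BFU-E against -4.25 ± 0.42 in WT, -3.36 ± 0.04 against -3.07 ± 0.12 in CFU-E, -0.22 ± 0.07 against -0.70 ± 0.06 in ERY-I-II, 0.76 ± 0.04 against 1.53 ± 0.05 in ERY-III-VI, and 0.63 ± 0.12 against 3.06 ± 0.36 in ERY-V-VI. The climb of Pcx past the other enzymes was thus present in both genotypes and reached a lower value in GS-KO in the last 2 gates. For Ogdh the same log2 ratio was 1.91 ± 0.04 against 1.73 ± 0.04 in ERY-I-II, 2.53 ± 0.07 against 3.06 ± 0.06 in ERY-III-VI and 2.35 ± 0.05 against 4.14 ± 0.14 in ERY-V-VI. For Fh1 in ERY-V-VI it was -1.24 ± 0.26 in GS-KO against -2.93 ± 0.72 in WT. This ratio does not change with library scaling, and it was not tested.

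The other genes of the cycle followed the same broad course in the stage series. Of all genes tested, 18.2% rose and 19.1% fell in CFU-E against BFU-E, and 25.4% rose and 20.9% fell in ERY-I against CFU-E. In ERY-II against ERY-I 20.2% rose and 25.1% fell. Of 12 further TCA cycle genes 8 rose and none fell in CFU-E against BFU-E (median log2 fold change 0.62, against -0.01 over all genes), 5 fell and none rose in ERY-I against CFU-E (-0.47, against 0.05), and 7 fell and none rose in ERY-II against ERY-I (-0.50, against -0.35). Suclg2, the GTP-forming partner of Suclg1, fell by 1.95 ± 0.28 in ERY-I (edgeR adjusted p = 0.00017) and by 2.83 ± 0.65 in ERY-II (adjusted p = 0.0046). Sdhb, the iron-sulfur subunit of succinate dehydrogenase, rose by 0.85 ± 0.21 in CFU-E against BFU-E (adjusted p = 0.013). Among 12 tested genes of pyruvate entry, 6 rose and 2 fell in CFU-E, 4 fell in ERY-I, and 1 rose and 6 fell in ERY-II (medians 0.42, -0.33 and -0.71, against -0.01, 0.05 and -0.35 over all genes). Pdk1, a kinase that switches off pyruvate dehydrogenase, rose by 1.2 ± 0.11 in CFU-E (adjusted p = 0.00014) and fell by 2.23 ± 0.30 in ERY-II (adjusted p = 2e-04), and Dlat, a subunit of that complex, fell by 1.07 ± 0.17 in ERY-I (adjusted p = 0.00031). Mpc2, a subunit of the carrier that brings pyruvate to pyruvate carboxylase and pyruvate dehydrogenase, rose by 1.12 ± 0.29 in ERY-IV against ERY-III (adjusted p = 0.029). In the WT gates Mpc2 rose by 1.47 in ERY-III-VI against ERY-I-II and by 2.10 in ERY-V-VI against ERY-III-VI. The biotin-loading enzyme Hlcs, which activates pyruvate carboxylase, went against Pcx, with a log2 fold change of -0.77 ± 0.14 in CFU-E (adjusted p = 0.003) and of -1.22 ± 0.43 in ERY-I (adjusted p = 0.032). The other biotin gene listed, Btd, did not pass in these steps. Of 4 genes of propionate entry to succinyl-CoA 2 rose in CFU-E, 3 fell in ERY-I and 2 fell in ERY-II (medians 0.48, -0.65 and -1.54). Of 5 lipoate and thiamine genes 1 rose in CFU-E, 1 rose and 2 fell in ERY-I and 2 of the 4 tested fell in ERY-II (medians -0.06, -0.79 and -0.61). For both lists the medians over all genes were again -0.01, 0.05 and -0.35.

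In GS-KO against WT, the 12 further TCA cycle genes fell more often than they rose up to ERY-I-II: 2 fell in BFU-E, 5 in CFU-E and 9 in ERY-I-II, with none rising (medians -0.08, -0.09 and -0.22, against -0.01, 0 and -0.01 over all genes). Over all genes tested, 15.4% rose and 8.59% fell in BFU-E, 17.9% and 11.5% in CFU-E, and 22.9% and 17.5% in ERY-I-II. In the later gates it was 31.4% and 24.5% in ERY-III-VI, and 22.4% and 20.5% in ERY-V-VI. In ERY-III-VI 2 rose and 2 fell (median 0.08, against 0.05). Dlst, the core subunit of the complex that holds Ogdh, was among those that fell (-0.31 ± 0.04, edgeR adjusted p = 1.8e-08). In ERY-V-VI none of the 12 passed, with a median of 0.26 against 0.15 over all genes. Mpc2 fell by 1.96 ± 0.11 in GS-KO ERY-V-VI (adjusted p = 5.1e-10) and by 0.66 with library totals. Among 18 genes of anaplerosis and export, 2 rose and 1 fell in BFU-E, 2 and 2 in CFU-E, 2 and 5 in ERY-I-II, 7 and 1 in ERY-III-VI, and 5 and 1 in ERY-V-VI (medians 0.01, -0.03, -0.11, 0.42 and 0.56 over the 15 to 17 tested, against -0.01, 0, -0.01, 0.05 and 0.15 over all genes). In these gates 24%, 29.4%, 40.4%, 55.9% and 42.9% of all genes tested passed in either direction. Idh1, the cytosolic isocitrate dehydrogenase, rose in GS-KO in every gate, by 0.98 in BFU-E and 1.10 in CFU-E, then 1.55 in ERY-I-II and 2.76 in ERY-III-VI, and 1.45 in ERY-V-VI (edgeR adjusted p = 0.039 in the last, the highest of the 5). Glud1, glutamate dehydrogenase, which makes 2-oxoglutarate from glutamate, rose by 0.28 in CFU-E, 0.72 in ERY-I-II and 2.44 in ERY-III-VI. Neutrophil and monocyte genes were higher in the same GS-KO libraries, as given above.

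Over the 18 group means of both tables, each table centred, the genes whose level ran most like that of Pcx among 10683 genes were Clcn3 (Pearson r = 0.9943), Atp6v0a1 (0.9937), Ank1 (0.9936), St5 (0.9921) and Urod (0.9917). The genes most like the mean of the other 8 enzymes were Mrpl42 (0.9953), Trap1 (0.9941), Mrpl39 (0.9931), Rars (0.9929) and M6pr (0.992). Among the 9 genes, Ogdh ran most like Pcx (r = 0.95), and Suclg1 (-0.93) and Idh2 (-0.86) ran opposite to it. These are descriptions over group means that share libraries and scaling within a table, and carry no test.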

How the data were processed

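The authors deposited 2 tables of raw counts per gene, 1 for the stage series and 1 for the knockout series. Per the submitters' processing notes the tools were STAR 2.5.2b and HTSeq, and the build was mm10. Per the labels' protocols, libraries were made with the Pico Input version of Takara's SMARTer Stranded Total RNA-seq kit. The sources used here do not give the annotation or the strand setting.

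Counts were tested as deposited with edgeR 4.0.16 (R 4.3.3): TMM scaling, filterByExpr with a minimum count of 10 and a minimum total of 15, and the quasi-likelihood F test over the libraries of the 2 groups compared. P-values were Benjamini-Hochberg adjusted over all genes tested, with a threshold of 0.05, and ± after a log2 fold change is a standard error. The scripts were tested on simulated data. The interaction fit used all 30 knockout series libraries. Each comparison was repeated with no low-count filter, with library totals or RLE size factors, with DESeq2 1.42.0, with the replicate number as a block, with each library left out in turn, and within, or with a term for, the sets of libraries with Y-linked transcripts or Xist. Replicates of a group differed by more than sampling noise, with a chi-square per degree of freedom of 1.30 to 6.40 in the knockout series. In the stage series it was 1.46 to 8.75 between Y-linked libraries, 9.38 to 165 between Xist libraries and 80.8 to 357 across the sets. The Y-linked libraries thus lay much closer to sampling noise, and whether they are technical repeats is not known. None were merged in the main fits.

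Same-numbered libraries were taken as paired where every pair's deviations from the group means correlated above 0.1. This held for ERY-I with CFU-E (r 0.33 to 0.43), ERY-III with ERY-II (0.53 to 0.81) and ERY-IV with ERY-III (0.32 to 0.66), from the data alone, since the labels do not say what a number stands for. In ERY-I and CFU-E, same-numbered libraries also shared the Y-linked or Xist set, so their correlations cannot tell pairing from the set. The 9 genes and the lists of other genes were chosen with earlier results of these data known. Named beside the 9 genes and Glul are at most 2 genes per list and comparison, those of largest log2 fold change that passed, averaged at least 5 CPM and kept their direction with library totals, and the 5 genes most like Pcx or like the mean of the other 8. Levels per kilobase used GENCODE vM21 exon lengths.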

Additional observations from a re-analysis of the deposited data

Results flagged for a closer look

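In groups of 4 to 10 libraries of the stage series, 10 of the 63 gene and population pairs examined held a library set apart from the others by Dixon's test at the 95% level, which chance gives in about 1 of 20 groups. Of these, 3 were CFU-E replicate 5, with Cs at 172 scaled CPM (the nearest other library at 149), Ogdh at 134 (110 in the nearest) and Sucla2 low at 32.5 (39.2 in the nearest). CFU-E replicate 4 was low for Idh2, at 27.3 against 38 in the nearest. Replicates 4 and 5 were the Xist libraries of CFU-E, and its other libraries were Y-linked. The chance rate above takes no account of such sets. Idh3a stood at 89.2 in ERY-I replicate 4 (nearest 61.8) and at 20.2 in ERY-II replicate 2 (nearest 16). Fh1 stood at 13.4 in ERY-IV replicate 4 (nearest 8.52).

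The other 3 were in ERY-VI, where few counts remain. Idh3a had 77.4 scaled CPM in ERY-VI replicate 2, from 33 counts, with 0 counts in the other libraries, and Idh2 had 4.69 in the same library, from 2 counts, again with 0 in the others. Fh1 had 5.09 in ERY-VI replicate 4, from 2 counts, with 0 in the others.

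The difference between GS-KO and WT varied between the 5 gates for each of the 9 genes (edgeR quasi-likelihood test of the interaction, Benjamini-Hochberg adjusted). The adjusted p was 5.3e-25 for Ogdh, 1.1e-19 for Pcx, 4.2e-10 for Fh1, 3.9e-09 for Idh2, 1e-07 for Idh3a, 1.7e-05 for Suclg1, 3.5e-05 for Mdh2, 0.0059 for Cs and 0.014 for Sucla2. Leaving out 1 library at a time, 8 or 9 of the genes passed.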

How the results depend on the processing

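Of 139 fold changes of the 9 genes, 137 kept direction and call with RLE size factors, 133 with DESeq2, 132 with no low-count filter and 124 with the replicate block, but 99 with library totals, which reversed 16. Library totals gave -0.11 for Ogdh in ERY-II against ERY-I, 0.02 in ERY-III against ERY-II, -0.09 in ERY-IV against ERY-III and -0.41 in ERY-V against ERY-IV. In ERY-V against ERY-IV they gave -0.33 for Pcx and -0.38 for Sucla2, and in ERY-VI against ERY-V -1.77 for Cs and -1.48 for Mdh2. In GS-KO against WT they gave 0.03 for Cs and 0.13 for Fh1 and for Mdh2 in ERY-III-VI, and 0.08 for Ogdh in ERY-V-VI. In WT they gave -0.24 for Cs in ERY-I-II against CFU-E, -0.11 for Ogdh in ERY-III-VI against ERY-I-II, and -0.36 for Ogdh and -0.92 for Suclg1 in ERY-V-VI against ERY-III-VI. The number of the 9 genes that passed became 2 in ERY-IV against ERY-III and in ERY-VI against ERY-V, 4 in GS-KO BFU-E and 8 in WT ERY-V-VI. The cause was not tested.

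By the rule used, the replicate numbers paired the libraries in 3 of the 16 comparisons. Where they did not, the block gave 6 in place of 8 genes passed in ERY-II against ERY-I, without Cs (-0.48) and Fh1 (-1.03). The block gave 2 genes passed in ERY-IV against ERY-III, where DESeq2 gave 1, and reversed Mdh2 in ERY-II against ERY-I (0.06), Fh1 in ERY-III against ERY-II (0.02), Cs (-0.88) and Ogdh (0.13) in ERY-VI against ERY-V, and Pcx in GS-KO BFU-E (0.01). The share of all genes that passed moved by over 1.5 times with the block in CFU-E against BFU-E (67.8%, against 37.3% without it), ERY-III against ERY-II (10.3%, against 0.185%), ERY-IV against ERY-III (25.2%, against 13.6%) and ERY-V against ERY-IV (14.3%, against 8.83%). DESeq2 gave 2.84% in ERY-III against ERY-II, 16.9% in ERY-V against ERY-IV and 17.7% in ERY-VI against ERY-V (7.83% with edgeR). Library totals gave 71.9% in ERY-II against ERY-I (45.3% with TMM), 0% in ERY-III against ERY-II, 8.76% in ERY-IV against ERY-III, 5.88% in ERY-V against ERY-IV, 44.1% in ERY-VI against ERY-V, 80.6% in GS-KO ERY-V-VI against WT (42.9%) and 72.8% in WT ERY-V-VI against WT ERY-III-VI (31.2%). With replicates 1 to 3 summed, 0 of the 9 genes and 0.852% of all genes passed in CFU-E against BFU-E, and 30.3% of all genes in ERY-I against CFU-E (46.4% unsummed). Within the Y-linked libraries 67.4% and 79.1% of all genes passed in these comparisons, and within the Xist libraries 1.87% in ERY-VI against ERY-V. Within the Xist libraries 1 gene passed in ERY-V against ERY-IV, Cs was at 0.01 in ERY-I against CFU-E, Fh1 at -0.30 and Mdh2 at 0.35 in ERY-V against ERY-IV, and Mdh2 at -0.15 in ERY-VI against ERY-V. DESeq2 gave 0.05 for Mdh2 in ERY-V against ERY-IV and for Ogdh in ERY-VI against ERY-V, and RLE gave 0.06 and 0.05. With no low-count filter Cs was at -0.05 and Mdh2 at -0.04 in ERY-VI against ERY-V.

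Leaving out 1 library at a time gave both signs for Idh2 (-0.15 to 1.04), Fh1 (-0.37 to 0.18) and Mdh2 (-0.03 to 0.28) in ERY-III against ERY-II, Idh3a (-0.19 to 0.05) in ERY-IV against ERY-III, Mdh2 (-0.36 to 0.11) in ERY-V against ERY-IV, and Cs (-1.12 to 0.46), Ogdh (-0.29 to 0.12) and Mdh2 (-0.14 to 0.51) in ERY-VI against ERY-V. It did so for Pcx (-0.19 to 0.11) and Sucla2 (-0.07 to 0.03) in GS-KO BFU-E, Cs (-0.01 to 0.18) in GS-KO ERY-V-VI, and Idh2 (-0.47 to 0.18) and Suclg1 (-0.08 to 0.37) in WT ERY-V-VI against WT ERY-III-VI. None of these had passed the test. Depth limits ERY-VI most, with 189 to 295 counts over the 9 genes per library.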
